A study of Mus musculus with 6 samples.

Results

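Type 2 immunity in the lung was followed through 10 genes on 6 mouse arrays: the cytokine genes Il4 and Il13, the transcription factor gene Gata3, the IL-33 receptor gene Il1rl1, the eosinophil granule genes Prg2 and Epx, the receptor gene Kit, and the mast cell protease genes Mcpt4, Cma1 and Cpa3. Members were taken as every probe whose gene symbol is 1 of these 10, which gave 14 probes. All 10 genes were among the 12968 genes tested, out of 16358 gene symbols found on the array. The arrays carried lung RNA of C57BL/6 mice of 3 genotypes, with 2 arrays each for WT, hCD2-T-bet tg/wt and hCD2-T-bet tg/tg. In the transgene, control elements of the human gene for CD2, a T cell surface protein, drive expression of the transcription factor T-bet in T cells. The study set out to find the lung expression changes that go with alveolar proteinosis, a filling of the air spaces with surfactant, in these mice. Age, sex and founder line are not given in the sources used here.

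T-bet, encoded by Tbx21, directs T helper 1 (Th1) cells to make interferon-gamma and restrains the opposing type 2 programme. Type 2 responses are directed by GATA3 in T helper 2 (Th2) cells and group 2 innate lymphoid cells (ILC2), which release IL-4, IL-5 and IL-13 when epithelial alarmins such as IL-33 and TSLP reach them. IL-5 supports eosinophils, which store toxic granule proteins, and IL-13 acts on airway epithelium and macrophages, while mast cells need signals through the receptor KIT and store proteases.

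A level below is the log2 signal of a probe minus its array's 75th percentile, so a level of 0 equals that percentile, and levels of different probes are not comparable. Brightness differed moderately between arrays, with 75th percentiles of 794 to 1204 intensity units and 62.0% to 66.8% of probes well above background, and replicate arrays correlated at 0.996 to 0.997 across genes. Both tg/wt arrays were alone on slide 2, so for tg/wt the slide and the genotype cannot be told apart. WT and tg/tg shared slide 1. Separate animals are not stated for the replicates, and p-values therefore measure the spread between arrays, which may be technical. Tbx21 followed the labels: its log2 level exceeded that of WT by 2.02 in tg/wt (4.06-fold, limma adjusted p = 1.05e-04) and by 3.96 in tg/tg (15.6-fold, adjusted p = 6.38e-07). Lung markers were present on every array, with a summed log2 level of 9.81 to 10.3 for 9 alveolar type 2 genes, of which 2 were higher and 2 lower in tg/tg than in WT. Genes of heart muscle (8 of 8) and fat (6 of 6), tissues that a lung sample can carry, were lower in tg/tg, and 8 and 4 of them were lower in tg/wt, and their part in the members' falls was not tested. In whole lung, fewer cells of a type and less RNA per cell cannot be told apart.

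The 10 genes did not move as a block. In tg/tg against WT, Prg2, Epx, Mcpt4 and Cma1 were higher and Il4, Gata3, Il1rl1 and Kit were lower, so 4 members rose and 4 fell (limma, Benjamini-Hochberg threshold 0.05). Over all genes tested, 33.8% were higher and 40.8% lower in that comparison, and a count of 4 and 4 of 10 is close to that background. Il13 and Cpa3 were not called. The fall of Il1rl1 holds only for the probe used in the fit, and another of its probes was higher in tg/tg. With the mean of each gene's probes, 5 members were higher and 3 lower. To be tested, a probe had to be well above background on at least 2 of 6 arrays. Epx passed this filter only through tg/tg and Il4 only through WT, so their calls are not independent of it. With probes above background on all 6 arrays only, 6 members remained, 3 higher and 3 lower. The members' median log2 difference was 0.18, or 0.25 with genes below background at their bound, beside -0.05 for all genes. In tg/wt against WT, Cma1 was higher and Il4, Prg2 and Mcpt4 were lower, against 13.4% of all genes higher and 14.6% lower. In tg/tg against tg/wt, Prg2, Epx, Mcpt4 and Cma1 were again higher, and Il4, Il13, Gata3 and Kit were lower, where 34.0% of all genes were higher and 40.2% lower. Of these, Il4 was below background in both genotypes, so its call there is not a measured fall. The comparisons share arrays, so these counts are not independent of each other. The shares over all genes are the background for the list counts as well. Arrays whose removal changed a call are named with each gene.

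**Figure D1:**
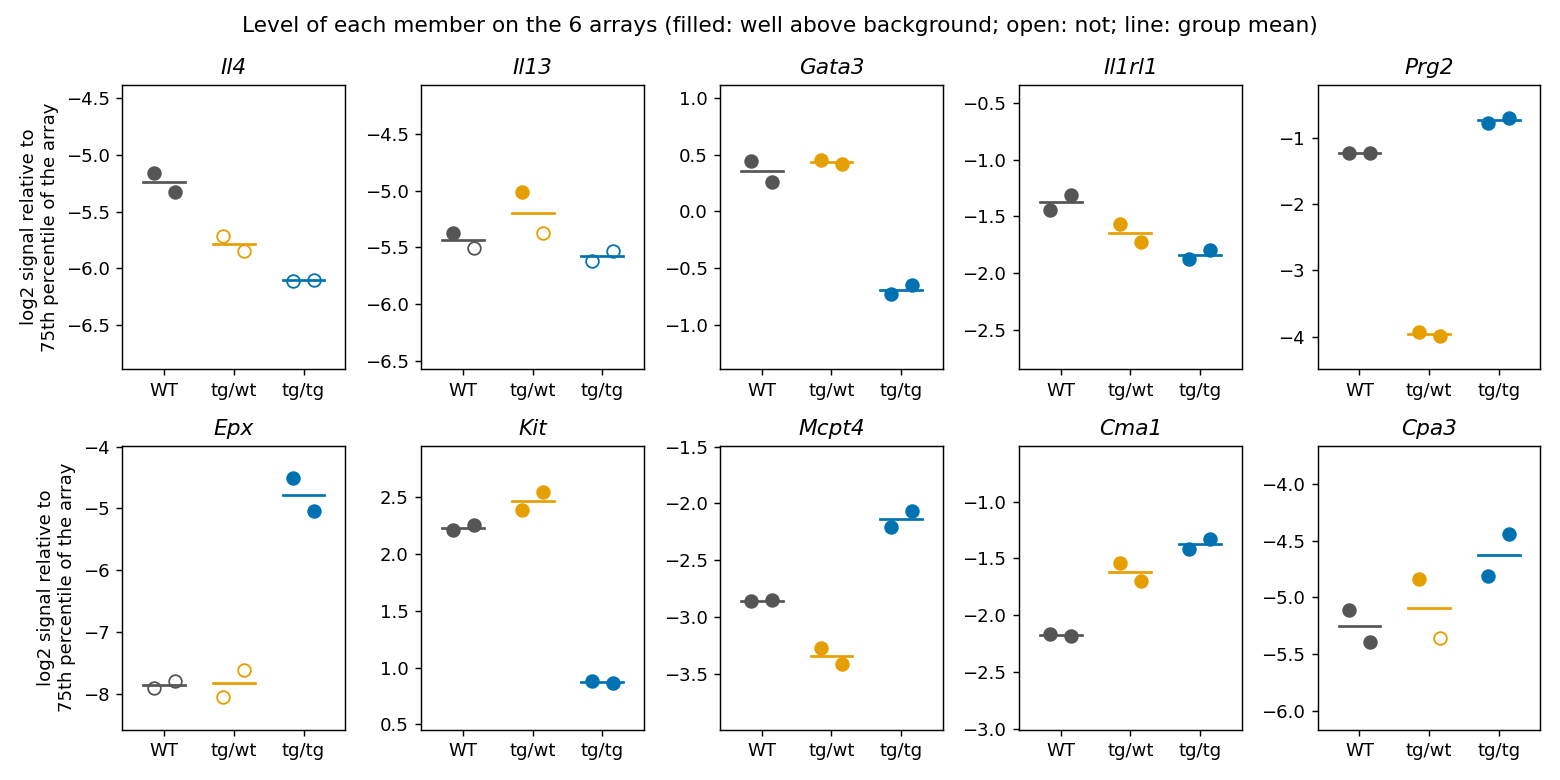
Level of each of the 10 genes on each array (vertical axis, log2 signal relative to the array's 75th percentile), by genotype (horizontal axis), for the probe used in the gene fit; filled points are well above background, open points are not, and lines are group means. Gata3 and Kit were lowest on the tg/tg arrays, Prg2 was lowest on the tg/wt arrays at -3.93 and -3.99, and Epx was above background only on the tg/tg arrays.

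Il4, which encodes the cytokine that drives Th2 differentiation and the switch to IgE, was close to the detection limit in every array. Its level in the WT pair was -5.16 and -5.32, where both arrays were well above background, in the tg/wt pair -5.71 and -5.85, and in the tg/tg pair -6.11 and -6.10, where none of the 4 arrays was. Both WT arrays lay above the others, and the order of tg/wt and tg/tg below background carries no information. Il4 passed the filter only through the 2 WT arrays, so its p-values are not independent of that filter. The difference of tg/tg from WT was -0.86 (SE 0.0748, limma adjusted p = 3.45e-04), which, as a bound against background, is at least 1.04-fold lower. That call ended when low values were floored (log2 difference -0.03) or with a normexp background correction (-0.12). In tg/wt the level was at least 1.20-fold lower than in WT (-0.54, adjusted p = 0.0101). This call ended under 4 of 17 alternatives, among them the removal of tg/wt 2. Between tg/tg and tg/wt, both below background, the fitted difference of -0.32 (adjusted p = 0.0132) has no fold, and its call ended without tg/wt 1 (0.0606), tg/tg 1 (0.0560) or tg/tg 2 (0.0518).

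Il13, the effector cytokine of mucus production and airway reactivity, was at the same limit. Its level in the WT pair was -5.37 and -5.51, in the tg/wt pair -5.02 and -5.37, and in the tg/tg pair -5.62 and -5.53, and only WT 1 and tg/wt 1 were well above background. Neither genotype differed from WT beyond the spread (tg/tg -0.14, SE 0.130, limma adjusted p = 0.377, and tg/wt 0.25, adjusted p = 0.218). Against tg/wt, tg/tg was lower by a bound of at least 1.08-fold (-0.38, adjusted p = 0.0456). This last call ended on leaving out any array other than tg/wt 2. Of 17 alternatives, 5 kept the call, 11 ended it and 1 turned the sign. The bounds given for Il4 and Il13 are least folds, and how much larger a fall was could not be measured at these signals. Il13 in tg/tg against WT has no bound.

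Among the other cytokines and alarmins, Il33 and Tslp were measured on all arrays and the remaining 3 on at most 1. Il5 and Il9, which act on eosinophils and on mast cells, were well above background on 0 arrays, and Il25, an alarmin of tuft cells, on 1. Of the 4 tested genes of the list, Il33 rose in tg/tg (1.49-fold, log2 difference 0.57, adjusted p = 6.76e-04), and Tslp fell 3.19-fold (-1.67, adjusted p = 7.08e-04) together with Il4. In tg/wt against WT, Il33 (-0.14) and Tslp (0.40) were not called.

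Gata3, which encodes the master transcription factor of Th2 cells and ILC2, fell in tg/tg. Its level in the WT pair was 0.45 and 0.26, in the tg/wt pair 0.46 and 0.42, and in the tg/tg pair -0.73 and -0.65. Both tg/tg arrays lay below all others, while WT and tg/wt overlapped. Gata3 in tg/tg was 2.06-fold lower than in WT (a log2 difference of -1.04 with an SE of 0.0746, limma adjusted p = 1.71e-04) and 2.19-fold lower than in tg/wt (-1.13, adjusted p = 1.35e-04). In tg/wt against WT the difference was 0.09 (adjusted p = 0.432). Gata3 is also made by other T cells and by some epithelial cells, and a whole-lung level does not say which cells changed.

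Other genes of Th2 cells and ILC2 went both ways. Of 13 tested, 8 rose and 3 fell in tg/tg against WT, beside 33.8% and 40.8% of all genes. Their median log2 difference was 0.75, beside -0.05 over all genes. In tg/wt 4 of the 13 rose and 2 fell, beside 13.4% and 14.6% of all genes. Those that fell in tg/tg were Gata3, Il1rl1 with the probe used in the fit, and Rora, which encodes a transcription factor needed for ILC2 (-0.47). The largest changes were rises in the costimulatory receptor gene Icos (17.7-fold), the lymphocyte receptor gene Klrg1 (7.57-fold), and the transcription factor genes Nfil3 (6.78-fold) and Bcl11b (6.07-fold). These genes are expressed by other T cells or NK cells as well. Genes of the T cell list were all higher in tg/tg (11 of 11, with a summed log2 level of 2.55 to 2.61 in WT, 3.46 to 3.47 in tg/wt and 5.64 to 5.66 in tg/tg), led by Cd6, Cd5, Cd3d and Lck. The part of T cell content in the rises of the list was not tested. The Th2 chemokine receptor genes Ccr4 and Ccr8 and the IL-25 receptor gene Il17rb were well above background on 0 arrays. For comparison, 9 of 10 Th1 genes rose and 1 fell in tg/tg (median 2.78), with Ifng at a log2 difference of 6.57. The same counts held in tg/wt (median 0.86), but the gene that fell was another: Hlx in tg/tg (-0.14) and Il18r1 in tg/wt (-0.55). Hlx was higher in tg/wt (0.24) and Il18r1 in tg/tg (0.81). The 10 include Tbx21, the gene carried by the transgene, so its rise is a check of the labels only.

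Il1rl1 encodes the receptor for IL-33, called ST2, in a membrane form that signals and a soluble form that binds IL-33 as a decoy, and the gene is transcribed from separate start sites. The RefSeq promoter table (build GRCm38.p6, 250 bases before to 50 after a start) holds 2 starts for it, shown because the gene's probes went in opposite directions and because GATA proteins are known regulators of this gene. Capitals mark the word AGATAA, its form with a last G (AGATAG), its form with a first T (TGATAA) and its form with both changes (TGATAG), on either strand, which are GATA-type motifs.
Il1rl1 start at the lower coordinate (chr1:40429320-40429619, plus strand): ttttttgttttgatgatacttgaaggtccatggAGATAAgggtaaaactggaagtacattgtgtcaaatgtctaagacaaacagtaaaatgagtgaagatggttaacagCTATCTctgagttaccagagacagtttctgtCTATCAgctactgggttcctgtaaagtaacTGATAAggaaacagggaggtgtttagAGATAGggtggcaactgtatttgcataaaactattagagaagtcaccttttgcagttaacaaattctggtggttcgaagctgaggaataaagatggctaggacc
Il1rl1 start at the higher coordinate (chr1:40439379-40439678, plus strand): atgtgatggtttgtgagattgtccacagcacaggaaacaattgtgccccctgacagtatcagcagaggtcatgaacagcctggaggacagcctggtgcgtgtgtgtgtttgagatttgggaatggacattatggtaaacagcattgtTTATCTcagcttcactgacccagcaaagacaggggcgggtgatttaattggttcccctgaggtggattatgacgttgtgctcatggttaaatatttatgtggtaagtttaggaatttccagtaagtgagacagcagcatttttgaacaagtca

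The window at the lower coordinate held 5 such words and the other held 1. Of all 32851 windows of 300 bases in the table, 29.8% held at least 1, and 9 of the 12 starts of members did. An entry existed for 9 of the 10 members. The windows of Kit and Epx held none, and the T-box word GGTGTGA, searched on both strands, was in 0 of the 12 and in 3.98% of all windows. Such matches describe the letters only.

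The 3 probes of Il1rl1 gave different pictures of the gene. The first, designed on NM_001025602 and used in the gene fit, read -1.44 and -1.31 on the WT arrays, -1.57 and -1.72 on the tg/wt arrays and -1.88 and -1.80 on the tg/tg arrays. The genotypes did not overlap and tg/tg was lowest. In tg/tg it was 1.38-fold below WT (a log2 difference of -0.46 with an SE of 0.0771, limma adjusted p = 0.00405), and its differences of tg/wt from WT (-0.27, adjusted p = 0.0615) and of tg/tg from tg/wt (-0.19, adjusted p = 0.0746) were not called. The latter was called without tg/wt 2 (adjusted p = 0.0484).

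The second probe, designed on NM_010743, was not well above background in WT (-7.92 and -7.68) or tg/wt (-8.05 and -7.60) but was in both tg/tg arrays, at -4.13 and -3.98. Fitted on its own among all probes, its tg/tg level exceeded WT at least 2.80-fold (log2 difference 3.74, SE 0.174, limma adjusted p = 4.45e-05) and exceeded tg/wt at least 2.76-fold (3.77, adjusted p = 4.82e-05). This probe passed the filter only through the 2 tg/tg arrays, so these p-values are not independent of that filter. The third probe, on the same accession, was well above background on 0 arrays, with levels from -7.97 to -6.12, the highest on tg/tg 2. So the fall of Il1rl1 in the gene fit holds for the first probe only, and with the mean of the gene's probes the sign turned to 1.64 in tg/tg against WT. Which transcript form each probe detects was not tested.

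**Figure D2:**
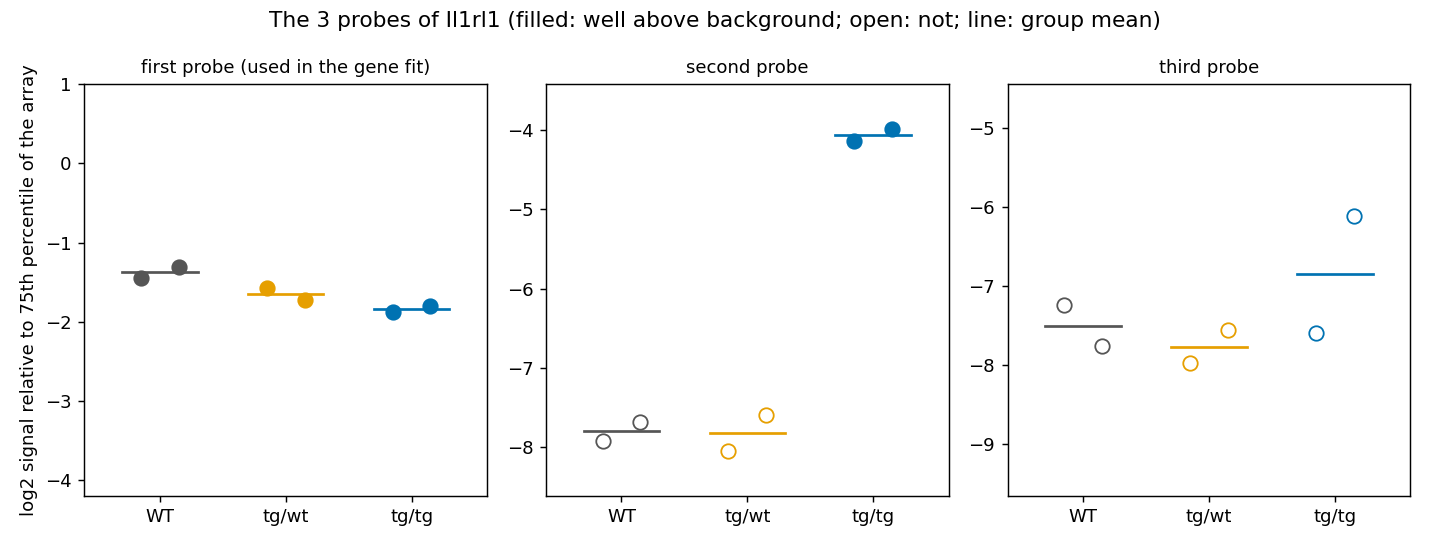
Levels of the 3 Il1rl1 probes (vertical axis, log2 signal relative to the array's 75th percentile, each panel with its own range of equal span) on the 2 arrays of each genotype; filled points are well above background, open points are not, and lines are group means. The first probe is lowest in tg/tg, at -1.88 and -1.80, while the second rises from background to -4.13 and -3.98 in tg/tg.

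Genes for the receptors and signalling proteins of type 2 cytokines were mostly higher in tg/tg. Of 15 tested receptor and signalling genes, 11 rose and 4 fell in tg/tg against WT (median log2 difference 0.82), beside 33.8% and 40.8% of all genes. Il1rl1, by its first probe only, was one of those that fell. The largest changes were in Il7r (5.33-fold higher), a chain of the TSLP receptor, Il2rg (3.59-fold), the common cytokine receptor chain shared by the IL-4 receptor, the kinase gene Jak2 (2.82-fold) and Crlf2 (2.42-fold), the TSLP-binding chain. Il7r, Il2rg and Jak3 are widely expressed by lymphocytes, and 11 of 11 T cell genes also rose in tg/tg (median 3.14, or 3.08 with bounds), whose part in these rises was not tested. Named outside the rule and after their values were seen, Il4ra, the IL-4 receptor chain, was 2.14-fold higher and Il13ra1, its IL-13-binding partner, 1.87-fold higher in tg/tg. Both were lower than WT in tg/wt (Il4ra 1.23-fold, adjusted p = 0.0145, and Il13ra1 1.30-fold, adjusted p = 0.0123). In tg/wt 4 genes of this list were higher and 2 lower, beside 13.4% and 14.6% of all genes. Il5ra, the eosinophil growth factor receptor gene, and Il13ra2, the decoy receptor gene, were well above background on 0 arrays.

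Genes that IL-4 and IL-13 are known to induce went both ways. Of 19 tested, 8 rose and 10 fell in tg/tg against WT (median log2 difference -0.27), beside 33.8% and 40.8% of all genes. In tg/wt 4 rose and 9 fell (median -0.40, or -0.21 with genes below background at their bound), beside 13.4% and 14.6% of all genes. Clca1, a secreted product of mucous cells, fell 45.8-fold in tg/tg (log2 difference -5.52) and 32.2-fold in tg/wt (-5.01, adjusted p = 3.21e-05). Ccl17, a chemokine gene for CCR4-bearing T cells, fell 13.4-fold in tg/tg and 1.83-fold in tg/wt. Further mucous cell genes, named after their values were seen, were lower in both: Tff2 (6.13-fold and 2.03-fold), Agr2 (3.74-fold and 2.50-fold) and Spdef (2.08-fold and 1.35-fold). Itln1, a lectin gene of goblet cells, went the other way in tg/tg, at least 2.30-fold above WT (log2 difference 1.98, adjusted p = 0.00591), and was not called in tg/wt (adjusted p = 0.0641). Itln1 passed the filter only through the tg/tg arrays. Beside these, 7 of 8 airway epithelium genes fell in tg/tg and 5 in tg/wt, with summed log2 levels of 9.71 to 9.73 in WT, 9.40 to 9.67 in tg/wt and 8.56 to 8.73 in tg/tg. The part of airway content in these falls was not tested.

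Other genes of this list rose in tg/tg. Arg1, the arginase of alternatively activated macrophages, exceeded WT 105-fold in tg/tg (log2 difference 6.71, SE 0.0669, limma adjusted p = 6.64e-07) and by 0.17 on the log2 scale in tg/wt, which was not called (adjusted p = 0.118). Slc26a4, the anion exchanger pendrin of airway epithelium, was 20.8-fold higher in tg/tg and 1.86-fold lower in tg/wt (-0.89, adjusted p = 7.55e-04). Retnla, named after its values were seen and known as an alternative activation marker, had the same pair of directions: 4.54-fold higher in tg/tg and 4.36-fold lower in tg/wt. A rise in tg/tg thus stood beside a fall in tg/wt for both Slc26a4 and Retnla. Chil3 and Chil4, also named after their values were seen, fell in tg/tg (1.54-fold, adjusted p = 8.58e-05, and 1.21-fold, adjusted p = 0.0187). Chil3 was 1.11-fold lower in tg/wt (adjusted p = 0.0435), where Chil4 was not called. Mrc1 and Clec10a, named in the same way, rose in tg/tg (2.20-fold and 1.43-fold).

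**Figure D3:**
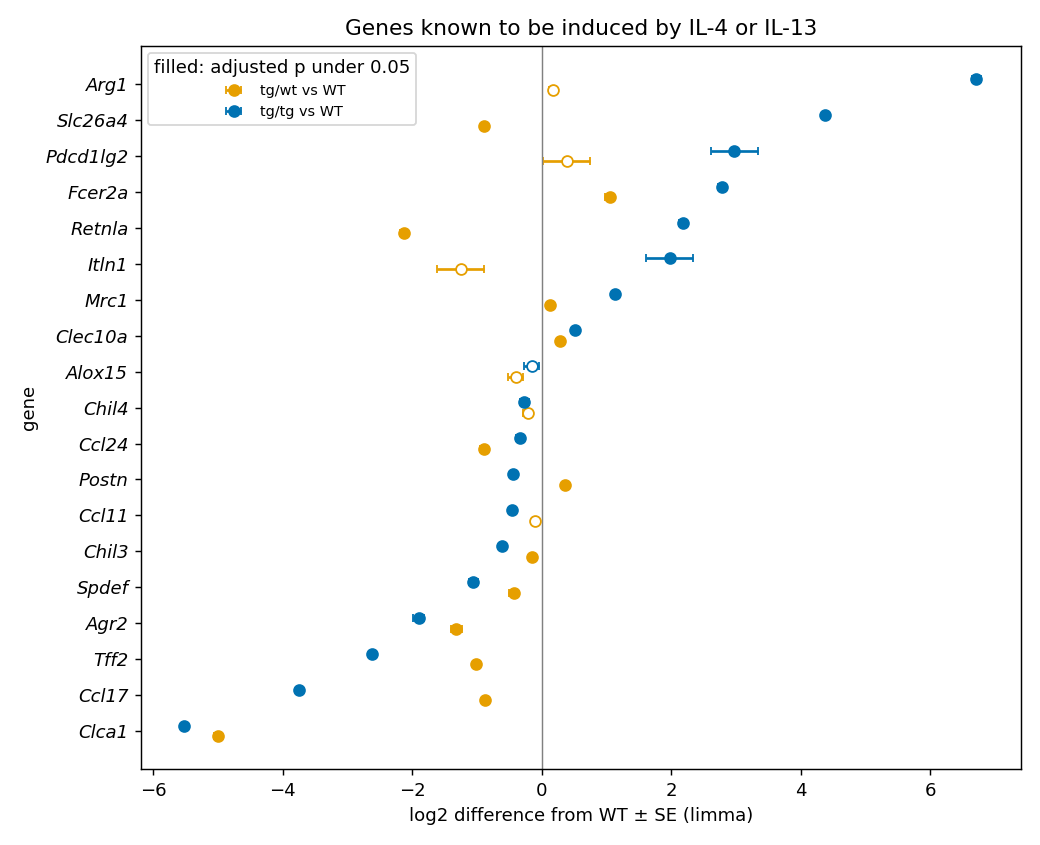
Log2 difference from WT (horizontal axis, with its SE) of 19 genes known to be induced by IL-4 or IL-13 (vertical axis, ordered by the tg/tg difference), in tg/wt (orange) and tg/tg (blue); filled points passed the adjusted p threshold of 0.05. Clca1, Agr2, Tff2 and Spdef were lower in both genotypes, while Retnla and Slc26a4 lay below 0 in tg/wt and above 0 in tg/tg.

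Prg2, which encodes major basic protein, the crystalline core of the eosinophil granule, fell in tg/wt and rose in tg/tg. Its level in the WT pair was -1.23 and -1.22, in the tg/wt pair -3.93 and -3.99, and in the tg/tg pair -0.77 and -0.69, all well above background. The genotypes were widely separated and the intermediate genotype was the lowest. In tg/wt Prg2 was 6.66-fold below WT (a log2 difference of -2.73 with an SE of 0.0449, limma adjusted p = 1.05e-04) and in tg/tg exceeded WT 1.41-fold (0.49, adjusted p = 4.11e-04). Between the transgenic genotypes it was 9.37-fold higher in tg/tg (3.23, adjusted p = 1.76e-06).

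Neutrophil genes were also lower in tg/wt and higher in tg/tg. Of 11 tested neutrophil genes, 11 were lower in tg/wt than in WT, beside 14.6% of all genes. Their median was -1.84, or -1.47 with genes below background at their bound. In tg/tg 10 were higher than in WT (median 0.66), led by Mpo, Ngp, Camp and Mmp8, beside 33.8% of all genes. The summed log2 level of the 11 was 5.83 to 5.87 in WT, 4.01 to 4.04 in tg/wt and 6.11 to 6.16 in tg/tg. The neutrophil gene Retnlg was among the 3 genes whose levels followed Prg2 most closely over the 6 arrays (Pearson r = 0.999), beside Serpina9 and Il1f9. The part of neutrophil content in the Prg2 result was not tested.

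Epx encodes eosinophil peroxidase, the other granule protein of the set. It was not well above background in WT (-7.91 and -7.79) or tg/wt (-8.05 and -7.61) but was in tg/tg, at -4.52 and -5.04. Only the tg/tg arrays stood above the others. Epx passed the filter only through these 2 arrays, so its p-values in tg/tg are not independent of that filter. The rise was at least 1.69-fold over WT (a log2 difference of 3.07 with an SE of 0.227, limma adjusted p = 1.92e-04) and at least 1.67-fold over tg/wt (3.05, adjusted p = 2.07e-04). With low values floored, the call against WT ended (log2 difference 0.44, adjusted p = 0.0701), as did that against tg/wt (0.44, adjusted p = 0.0705). Both Prg2 and Epx were called higher in tg/tg, but the Epx calls depend on the filter and ended with the floor. Epx was not well above background in WT or in tg/wt, where Prg2 was lowest.

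Other eosinophil genes went both ways. Of 8 tested in the list, Prg2, Epx and Ccr3 rose and 4 fell in tg/tg against WT (median log2 difference -0.31). The shares over all genes were 33.8% higher and 40.8% lower. The lectin gene Siglecf fell 4.19-fold (-2.07, adjusted p = 4.16e-06), and the ribonuclease genes Ear1 and Ear6 fell 10.04-fold and 1.90-fold. In tg/wt the same 3 genes were higher than WT (Siglecf 1.23-fold, Ear1 1.40-fold and Ear6 1.20-fold). Gata1, the remaining gene that fell in tg/tg (1.37-fold, adjusted p = 0.00243), was also lower in tg/wt (1.33-fold, adjusted p = 0.0151). Siglecf and Ear1 also belong to the alveolar macrophage list, of which 9 of 11 genes fell and 2 rose in tg/tg (median -2.07, summed log2 level 7.30 to 7.32 in WT and 7.02 in both tg/tg arrays). The part of alveolar macrophages in these falls was not tested. The eotaxin receptor gene Ccr3, named after its values were seen, was 1.59-fold higher in tg/tg (adjusted p = 0.0302), and Prg3 and Il5ra were well above background on 0 arrays.

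Kit encodes the stem cell factor receptor, which mast cells need to survive, and ILC2, progenitors and lung capillary endothelial cells also carry it. Its level in the WT pair was 2.21 and 2.25, in the tg/wt pair 2.38 and 2.54, and in the tg/tg pair 0.88 and 0.86. The tg/tg arrays lay far below all others. In tg/tg Kit was 2.56-fold below WT (a log2 difference of -1.35 with an SE of 0.0619, limma adjusted p = 3.48e-05) and 3.01-fold lower than in tg/wt (-1.59, adjusted p = 2.30e-05). In tg/wt it stood 0.23 above WT, at the threshold without passing it (adjusted p = 0.05001), and without tg/wt 1 it passed (adjusted p = 0.0351).

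Endothelial genes were lower in tg/tg as well. Of 14 genes, 13 were lower and 1 higher in tg/tg than in WT (median -1.46), beside 40.8% and 33.8% of all genes. The summed log2 level of the list was 8.29 to 8.30 in WT, 8.14 to 8.15 in tg/wt and 7.06 in both tg/tg arrays. Ednrb, Tmem100, Tek and Kdr led (log2 differences from -3.40 to -1.70). Kit, which is not in this list, fell less than these, at -1.35. In tg/wt 3 of the 14 genes of the list were higher and 6 lower (median -0.07), beside 13.4% and 14.6% of all genes. The part of endothelium in the Kit result was not tested. The genes closest to Kit over the 6 arrays were Card10, Pla2r1 and Npr2, at r from 0.9996 to 0.9998.

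**Figure D4:**
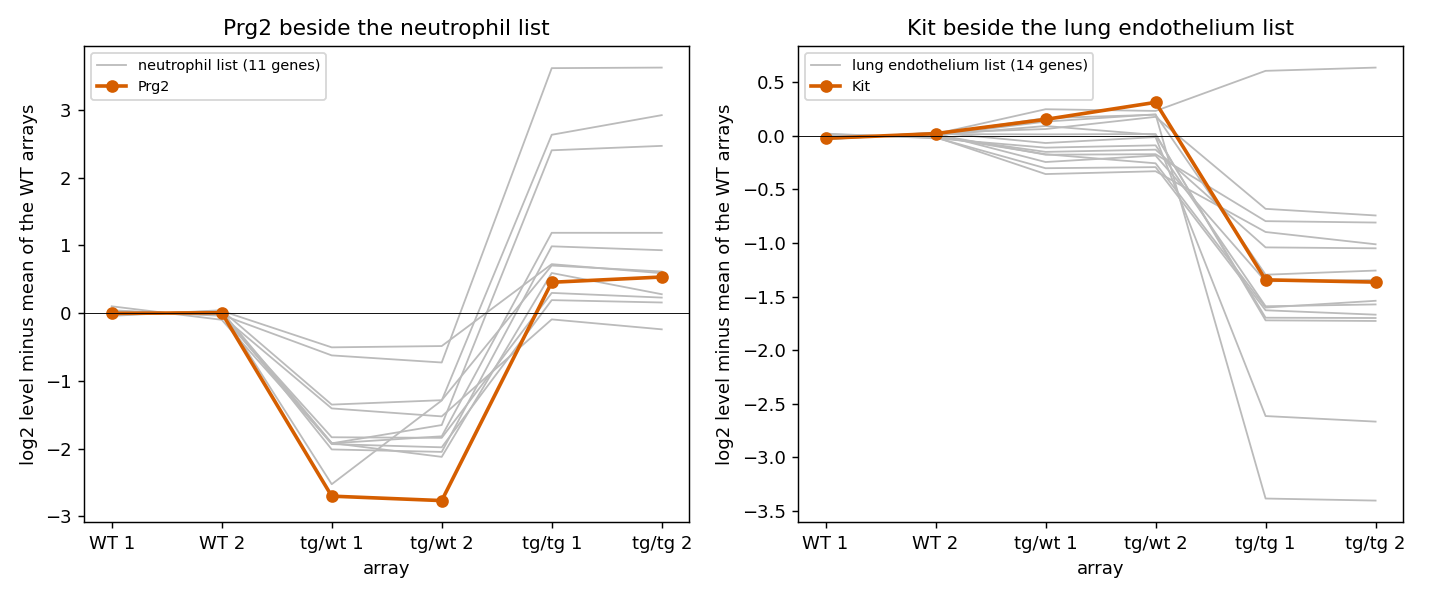
Log2 level minus the mean of the WT arrays (vertical axis) on each of the 6 arrays (horizontal axis) for Prg2 with the 11 genes of the neutrophil list (left) and Kit with the 14 genes of the lung endothelium list (right); lines join the arrays for reading only. The neutrophil genes and Prg2 are low on both tg/wt arrays, and 13 of the 14 endothelial genes and Kit are low on both tg/tg arrays.

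Mcpt4 and Cma1, unlike Kit, were higher in tg/tg than in WT, and Cpa3 was not called. Mcpt4, a chymase of connective tissue mast cells, read -2.86 and -2.85 on the WT arrays, -3.27 and -3.42 on the tg/wt arrays and -2.20 and -2.07 on the tg/tg arrays with the probe used in the fit. The genotypes did not overlap, with tg/wt lowest and tg/tg highest. In tg/tg it exceeded WT 1.65-fold (log2 difference 0.72, SE 0.0718, limma adjusted p = 5.69e-04), and in tg/wt it was 1.40-fold lower than WT (-0.49, adjusted p = 0.0118). The tg/tg level exceeded that of tg/wt 2.31-fold (1.21, adjusted p = 9.29e-05). The fall in tg/wt was no longer called without WT 1 (adjusted p = 0.0610), WT 2 (0.0610) or tg/wt 2 (0.0524).

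A second Mcpt4 probe read -4.25 and -4.33 on the WT arrays, -4.54 and -4.44 on the tg/wt arrays and -3.61 and -3.73 on the tg/tg arrays. In the fit of every probe its tg/tg level exceeded WT 1.54-fold (adjusted p = 8.26e-04), and its tg/wt difference of -0.20 did not pass (adjusted p = 0.0961). Both probes thus placed tg/tg highest and tg/wt lowest.

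Cma1, the chymase whose product most resembles human mast cell chymase, was higher in both transgenic genotypes. Its level on the probe used in the fit in the WT pair was -2.16 and -2.19, in the tg/wt pair -1.54 and -1.70, and in the tg/tg pair -1.42 and -1.33. WT was lowest and tg/tg highest, without overlap. It exceeded WT 1.74-fold in tg/tg (a log2 difference of 0.80 with an SE of 0.0666, limma adjusted p = 2.91e-04) and 1.47-fold in tg/wt (0.56, adjusted p = 0.00672). The step of 0.24 between tg/wt and tg/tg (adjusted p = 0.0234) was no longer called without tg/wt 2 (adjusted p = 0.0726) or tg/tg 2 (0.0993). The second probe read -4.25 and -4.24 on the WT arrays, -3.38 and -3.58 on the tg/wt arrays and -3.21 and -3.13 on the tg/tg arrays, and gave rises of 2.11-fold in tg/tg and 1.70-fold in tg/wt.

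Cpa3, which encodes the mast cell carboxypeptidase stored with these chymases, was dim. Its level in the WT pair was -5.11 and -5.39, in the tg/wt pair -4.84 and -5.36, and in the tg/tg pair -4.82 and -4.44, and tg/wt 2 was not well above background. The tg/tg arrays lay above both WT arrays, but the difference of 0.62 (SE 0.229) did not pass (limma adjusted p = 0.0585). Within slide 1, which holds WT and tg/tg without tg/wt, it passed with the same difference (adjusted p = 0.0385), and leaving out tg/wt 1 or tg/wt 2 amounts to that same fit. The difference of tg/tg from tg/wt (0.47, adjusted p = 0.122) passed without tg/wt 1 (adjusted p = 0.0464).

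**Figure D5:**
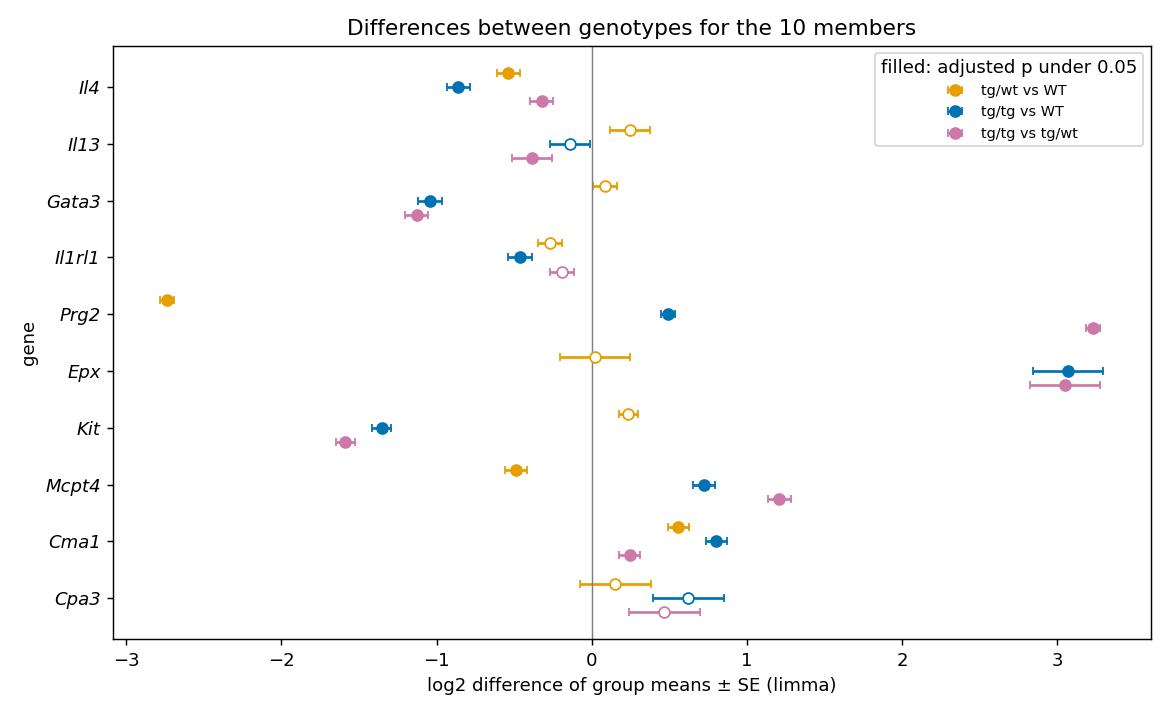
Log2 difference of group means with its SE from limma (horizontal axis) for the 10 genes (vertical axis) in tg/wt against WT (orange), tg/tg against WT (blue) and tg/tg against tg/wt (purple); filled points passed the adjusted p threshold of 0.05. Prg2 and Mcpt4 lie on opposite sides of 0 in tg/wt and tg/tg, and Gata3 and Kit are lower in tg/tg in both of its comparisons.

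Genes of the wider mast cell list were as divided as the 4 members in it. Of 13 tested, 6 rose and 4 fell in tg/tg against WT (median log2 difference 0.62), beside 33.8% and 40.8% of all genes. In tg/wt 2 rose and 2 fell, beside 13.4% and 14.6% of all genes. The largest rises in tg/tg were in Hpgds, the prostaglandin D2 synthase gene (at least 6.25-fold), Ctsg, the cathepsin G gene of mast cells and neutrophils (10.3-fold), and Fcer1g, the signalling chain of the IgE receptor that many myeloid cells use (7.77-fold). Mcpt4 and Cma1 were well above background on all 6 arrays with both probes, whereas Tpsb2, Tpsg1, Mcpt1, Mcpt2, Mrgprb1, Mrgprb2 and Ms4a2, which basophils share, were so on 0 arrays, and the IgE receptor chain gene Fcer1a was not called (0.25, adjusted p = 0.138). Of 4 tested basophil genes, the IL-3 receptor chain gene Il3ra rose 1.58-fold and Gata2, a transcription factor gene shared with mast cells and endothelium, fell 2.28-fold (-1.19, adjusted p = 2.07e-05). Mcpt8, the basophil protease gene, was well above background on 0 arrays.

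The genes that followed each remaining member most closely over the 6 arrays, among tested genes whose group means ranged over at least 1 on the log2 scale, differed from member to member. Gata3 was followed by Plekha6, Robo2 and Aloxe3, and Epx by Ptpn2, Trp53i11 and Apobr. Mcpt4 was followed by Pigr, the polymeric immunoglobulin receptor gene, Speer4a and Gm9758, and Cma1 by Klrb1c, an NK cell receptor gene, Clspn and Cilp. Il4 was followed by Kcnj11, Gp1ba and Lrrc39, and the first probe of Il1rl1 by Ppp1r3a, Dmrt2 and Ppp1r32. Il13 was followed by Cyp2b19, Zfp607a and Zfp775 (r from 0.925 to 0.980) and Cpa3 by Gpr85, Pfpl and Mrgpra2b (r from 0.918 to 0.932). The arrays fall into 3 groups, so r over them mainly reflects the 3 group means.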

How the data were processed

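Per the labels' protocols, lung RNA was extracted with a column kit and labelled with Cy3 for single-colour arrays. Per the file headers, Agilent Feature Extraction 9.5.3.1 produced the deposited intensity values, while the submitters' processing notes name 9.1. Processed intensity (background-subtracted, linear) was taken as log2 minus each array's 75th percentile. Control spots and spots marked as outliers were left out. Of 41174 probes, 22951 were named through RefSeq accessions (GRCm38.p6). Probes well above background on at least 2 of 6 arrays entered, with the brightest probe of each gene, which gave 12968 genes. A probe well above background in 1 genotype only thus entered through that genotype. All 6 arrays entered 1 group-means model in limma 3.58.1 (R 4.3.3), with 3 residual degrees of freedom and Benjamini-Hochberg adjustment over all genes. Where the lower group was below background, a fold is a bound, the higher group's mean against the lowest signal well above background on each array of the lower group, or the probe's own signal if higher. The fit was tested on simulated data. The number of arrays limits the precision. No mean signal column was present, so normexp used the median signal.

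Members, lists and alternatives were chosen with earlier results of these data known. All members were named. From each list up to 4 genes called in tg/tg against WT with the largest differences were named, and for each member the 3 genes with the highest r. Figures were drawn in matplotlib, version 3.10.9.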

Additional observations from a re-analysis of the deposited data

Results flagged for a closer look

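Prg2 and Mcpt4 were called in opposite directions against WT in tg/wt and tg/tg, and the transgenic genotypes also differed from each other when compared directly. The tg/tg level of Prg2 exceeded that of tg/wt by 3.23 on the log2 scale (limma adjusted p = 1.76e-06), with both tg/tg arrays above and both tg/wt arrays below the WT arrays. For Mcpt4 the excess was 1.21 (adjusted p = 9.29e-05), with the same order of genotypes on its other probe. That other probe was not called in tg/wt against WT (-0.20, limma adjusted p = 0.0961 in the fit of every probe). With the probe used in the gene fit, the fall of Mcpt4 in tg/wt was no longer called without WT 1, WT 2 or tg/wt 2. Of 2668 genes called in all 3 comparisons, 818 had opposite signs against WT in tg/wt and tg/tg. Of the 4 members called in all 3, Prg2 and Mcpt4 did. The comparisons share arrays, and the tg/wt arrays are alone on their slide.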

How the results depend on the processing

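Most member calls kept their direction and side of the threshold under the alternatives, but Il13 in tg/tg against tg/wt did so in 5 of 17. Gata3, Prg2, Kit, Mcpt4 and Cma1 kept theirs in tg/tg against WT under all 19. The count of members higher in tg/wt against WT went from 1 to 2 with normexp, quantile normalization, only probes above background on all 6 arrays, a floor on low values or an intensity trend in the variance. It was 1 to 2 on leaving out single arrays (2 without tg/wt 1), and members lower in tg/wt numbered 1 to 3 (1 without tg/wt 2). Members lower in tg/tg against tg/wt went from 4 to 2 with normexp, the strict filter (which leaves 6 members) and the floor, and were 2 to 5 on leaving out single arrays (2 without tg/wt 1, tg/tg 1 or tg/tg 2, and 5 without tg/wt 2). Over all genes, those lower in tg/tg against tg/wt went from 5217 to 4793 with normexp and 5152 with the floor. With the strict filter they were 4884 of 11889. Signs turned for Il1rl1 with the mean of its probes (1.64 in tg/tg against WT and 1.79 against tg/wt), where the second probe enters. They also turned for Epx in tg/wt against WT with the deposited series values (-1.86), and with normexp in tg/tg against tg/wt for Il4 (0.0705) and Il13 (0.0504) and in tg/tg against WT for Il13 (0.0516), which was not called either way. With the floor, Il4 in tg/tg against tg/wt became 0.00, since both groups take the same value. Other differences that were not called and changed sign were those of Gata3, Epx and Cpa3 in tg/wt against WT. The cause was not tested for the others. Cpa3 in tg/tg against WT passed under 8 of 18 alternatives, 4 of which (slide 1, the groups compared and each tg/wt array left out) are the same fit, and Kit in tg/wt under 6 of 18. Over all genes, leaving out single WT or tg/wt arrays cut the genes called in tg/wt against WT from 1732 higher and 1887 lower to 746 to 919 higher and 595 to 888 lower, and no filter left 1208 lower. With the replicate block, the members' 30 calls were the same, with 1 higher and 3 lower in tg/wt against WT. Deviations of same-numbered arrays were weakly correlated (0.129, -0.0480 and -0.0458), which with 2 arrays per group cannot exclude a pairing. Slide as a block could be fitted for tg/tg against WT only, within slide 1. The signal over background limits Il4, Il13, Epx, Cpa3 and the second Il1rl1 probe.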

Other observations

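Il4 and Il13 lie next to each other, and Cma1 and Mcpt4 share a cluster of protease genes, so their neighbours were read as values. Of the 10 neighbouring protein-coding genes of Il4 and Il13 (reaching 5 beyond the pair on each side in RefSeq order), 8 were tested and 7 fell in tg/tg against WT, including the carnitine transporter gene Slc22a5 (2.27-fold) and the growth factor gene Gdf9 (2.01-fold). Irf1, the interferon-induced transcription factor gene of the same neighbourhood, rose 3.98-fold (log2 difference 1.99, limma adjusted p = 2.35e-06). In tg/wt against WT 2 of these neighbours were higher and 2 lower. Of the 14 neighbours of Cma1 and Mcpt4, 4 were tested, of which 3 rose in tg/tg, including Ctsg (10.3-fold) and the granzyme gene Gzmd (4.52-fold), and 1, Nfatc4, fell 1.09-fold. Of the other cell type lists set beside the members, 6 of 8 NK cell genes were higher in tg/tg against WT and 1, Ncr1, was 1.97-fold lower. In tg/wt against WT 6 of these 8 were higher and 0 lower. In tg/tg 3 of 7 fibroblast genes were higher and 3 lower, and 1 of 4 mesothelium genes was higher and 3 lower. Over all genes, 33.8% were higher and 40.8% lower in tg/tg, and 13.4% higher and 14.6% lower in tg/wt. The neighbours were chosen by position, and the genes named here after their values were seen.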
